A study of Rattus norvegicus with 20 samples.

Results

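The levels of 5 lipogenic genes, Scd, Elovl6, Thrsp, Srebf1 and Fads1, are described here in the red, more oxidative part of the tibialis anterior, a hindlimb muscle, on 20 arrays. The genes were found as the rows of the table whose only gene symbol was one of these names, which gave 1 row for each, 5 of 14557 genes with a row of their own. They were selected on earlier results of these same arrays, in which the groups of rats were compared, so their group differences are given as a description, with standard errors and 95% intervals but with no test. Tests on the 5 genes were kept to their variation among arrays of the same group, with each other and with marker scores. Other genes were tested between the groups on the same arrays, from lists that were also drawn up with earlier results known.

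All rats were male and of the ZDF strain, the Zucker diabetic fatty rat, in which obese animals carry a defective leptin receptor and develop diabetes. The rosiglitazone group had received an agonist of the nuclear receptor PPARgamma, and the resveratrol group a polyphenol found in grapes. The obese group was kept on a stock diet for 6 weeks, and the lean control group ate standard chow. Each group had 5 arrays, labelled as biological replicates, 1 array per rat. Doses, length of treatment, age and the genotype of individual treated rats are not stated in the sources used here. Both treated groups were set against the obese group because the study was one of interventions in diabetic rats.

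De novo lipogenesis turns surplus carbohydrate carbon into fatty acids. Its genes are switched on by insulin through SREBP-1c, a product of Srebf1, by the carbohydrate sensor ChREBP and by the oxysterol receptor LXR, which itself raises Srebf1. Liver and adipose tissue are the main sites, and skeletal muscle runs the pathway at a low rate. Within it, Elovl6 lengthens palmitate and Scd places the first double bond in the product. Thrsp is a small nuclear protein (Spot 14) that follows thyroid hormone and carbohydrate supply. Fads1 is the delta-5 desaturase that completes arachidonic acid, which is not a step of de novo lipogenesis.

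In the RefSeq annotation of the rat assembly GRCr8, Scd lies at chr1:253218968-253232101, Elovl6 at chr2:220738095-220845528, Thrsp at chr1:161134640-161138964, Srebf1 at chr10:45507152-45529164 and Fads1 at chr1:216252605-216267618. All 5 are protein-coding genes. Promoter sequence was at hand for 4 of them, in 5 windows of 250 bases that end at a transcription start. The windows are shown because Scd, Thrsp and Srebf1 shared a pattern over the groups that Fads1 did not, and they show which of the binding motifs usually named for lipogenic promoters lie before these starts. The start of a window need not be the outer end of the gene. All 250 bases of the Scd window and of the inner Srebf1 window, and 87 bases of the Fads1 window, lie inside the annotated gene, whereas the Thrsp window and the outer Srebf1 window lie outside it. They run 5′ to 3′ on the strand of the gene, and capitals mark every motif match on either strand. The windows are chr1:253231732-253231981 for Scd, chr1:161138965-161139214 for Thrsp, chr10:45519011-45519260 and chr10:45529165-45529414 for Srebf1, all on the minus strand, and chr1:216252442-216252691 on the plus strand for Fads1. The promoter of Elovl6 is named only.
Scd: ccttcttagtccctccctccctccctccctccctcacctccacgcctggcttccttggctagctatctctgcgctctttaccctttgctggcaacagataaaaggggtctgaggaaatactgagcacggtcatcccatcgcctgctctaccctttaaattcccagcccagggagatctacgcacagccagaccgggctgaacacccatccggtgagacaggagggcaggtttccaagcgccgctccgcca
Thrsp: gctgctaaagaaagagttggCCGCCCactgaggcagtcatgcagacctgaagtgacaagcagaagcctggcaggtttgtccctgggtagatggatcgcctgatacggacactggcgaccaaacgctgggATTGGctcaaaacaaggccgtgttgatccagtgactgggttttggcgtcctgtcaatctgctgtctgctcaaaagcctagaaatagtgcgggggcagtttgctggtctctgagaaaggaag
Srebf1, start inside the gene: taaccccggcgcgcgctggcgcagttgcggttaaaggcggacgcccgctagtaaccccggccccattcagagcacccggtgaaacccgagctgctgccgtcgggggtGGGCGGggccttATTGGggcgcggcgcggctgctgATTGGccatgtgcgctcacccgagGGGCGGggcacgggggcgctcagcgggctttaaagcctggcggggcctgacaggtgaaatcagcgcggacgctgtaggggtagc
Srebf1, start at the outer end of the gene: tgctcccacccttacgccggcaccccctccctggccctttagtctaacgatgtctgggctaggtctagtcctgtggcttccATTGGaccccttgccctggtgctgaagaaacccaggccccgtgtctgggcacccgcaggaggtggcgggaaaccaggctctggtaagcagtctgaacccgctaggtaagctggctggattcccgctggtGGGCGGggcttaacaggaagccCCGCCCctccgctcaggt
Fads1: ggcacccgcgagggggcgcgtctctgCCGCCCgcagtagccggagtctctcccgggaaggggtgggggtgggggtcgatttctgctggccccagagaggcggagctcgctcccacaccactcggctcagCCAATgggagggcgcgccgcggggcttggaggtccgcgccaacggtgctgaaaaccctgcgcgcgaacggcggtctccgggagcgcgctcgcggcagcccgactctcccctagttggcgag

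The motifs searched were CCAAT, bound by NF-Y, GGGCGG, bound by Sp1, CACGTG, the E-box, TCACNCCAC, a form of the sterol regulatory element, and a pair of AGGTCA sites in the same direction with 1 base between them, as PPAR binds with RXR, or 4 bases between them, as LXR does. Of the windows of this length before 33469 starts in the RefSeq table, 34.0% held CCAAT, 30.5% GGGCGG, 5.59% CACGTG, 0.974% TCACNCCAC, 0.0508% the AGGTCA pair with 1 base between and 0.00299% the pair with 4 bases. Thrsp held CCAAT on the opposite strand with its first base at position -121 from the start and GGGCGG on the opposite strand at -230. Fads1 held CCAAT at -121 on its own strand and GGGCGG at -224 on the opposite strand. The inner start of Srebf1 had CCAAT on the opposite strand at -131 and -108 and GGGCGG on its own strand at -143 and -84. The outer start had CCAAT on the opposite strand at -169 and GGGCGG at -40 on its own strand and at -18 on the opposite strand. No 2 matches overlapped. The E-box, the sterol element and both AGGTCA pairs were in none of these windows, and the Scd window held none of the 6 motifs. These are letter matches in short windows and say nothing about binding.

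The values are RMA log2 values, so a difference of 1 is a doubling, and levels are compared only between arrays for the same gene. The median value of an array lay between 2.46 and 2.55 over all rows, and a value near or below it was not shown to be above background. Markers checked the tissue. The mean of 10 skeletal muscle markers lay between 9.90 and 10.32 on all arrays. The mean of 3 hepatocyte markers reached 4.83 on lean control replicate 1, against 2.08 to 3.19 on the other arrays, and its part in the values below was not tested. Without that array, obese minus lean control came to -0.90 for Thrsp and -0.48 for Fads1, close to the values with it below.

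Scd, the delta-9 desaturase that makes oleate and palmitoleate, was far higher in rosiglitazone muscle than in any other group. It stood at 6.42, 7.18, 7.30, 7.26 and 5.84 in the 5 rosiglitazone rats. The resveratrol rats had 4.30, 3.18, 4.60, 3.49 and 3.69. The obese rats had 1.98, 1.62, 2.46, 2.31 and 4.03, and the lean controls 2.73, 2.0002, 4.17, 1.97 and 1.88. Every rosiglitazone array was thus above every other array, and single rats, obese replicate 5 and lean control replicate 3, stood well above the rest of their groups. Scd was at or below the median of its array on 4 of 5 obese and 3 of 5 lean arrays, so the low end of its range may be compressed. The order of the group means was rosiglitazone, resveratrol, lean control and obese, and only the first step in that order had no overlap between neighbours.

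**Figure D1:**
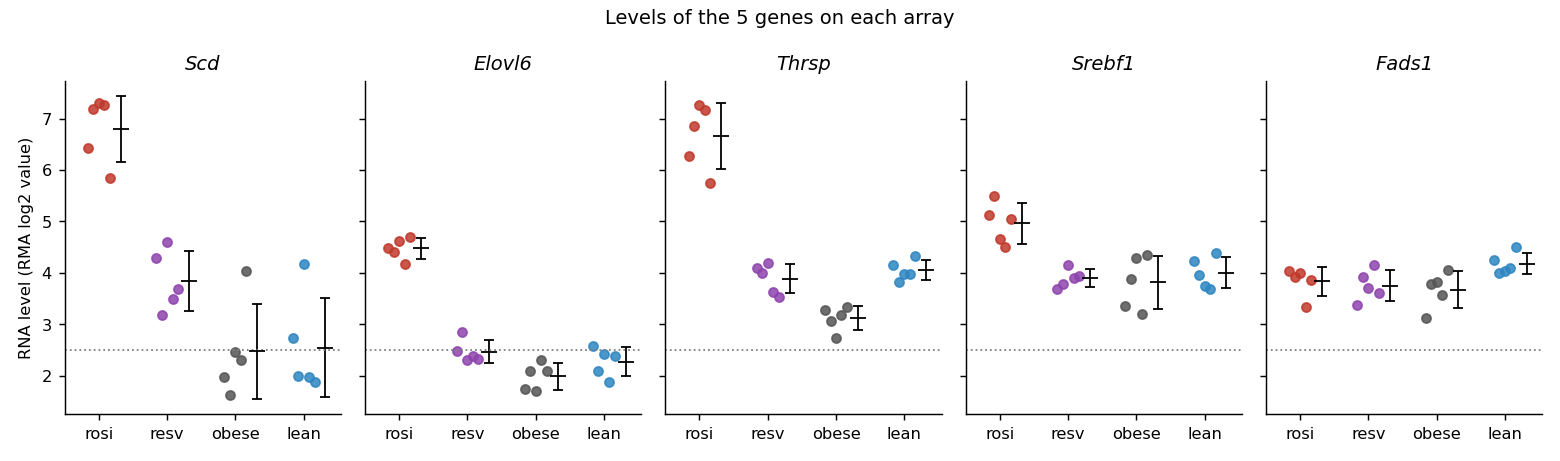
RMA log2 value of each gene on each of 20 arrays, by group (rosi, rosiglitazone; resv, resveratrol; lean, lean control). Points are arrays, bars are the mean and SD of 5 arrays, and the dotted line is the median of the array medians, 2.502. Scd, Elovl6, Thrsp and Srebf1 lie above all other groups in the rosiglitazone rats, whereas the 4 groups of Fads1 lie between 3.12 and 4.497 and overlap.

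Elovl6, the elongase that takes palmitate to stearate, had 4.49, 4.40, 4.62, 4.18 and 4.70 in rosiglitazone rats. It had 2.49, 2.85, 2.31, 2.39 and 2.32 in resveratrol rats, 1.73, 2.10, 1.71, 2.31 and 2.10 in obese rats and 2.57, 2.09, 2.43, 1.87 and 2.38 in lean controls. Its rosiglitazone arrays were tight, with an SD of 0.202, and its lowest array, at 4.18, lay well above the highest of any other group, at 2.85. All 5 obese arrays and 4 of 5 in both the resveratrol and the lean control group were at or below the median of their array, so Elovl6 was clearly above that level in the rosiglitazone group alone. The lowest resveratrol value and the highest obese value differed only in the third decimal, at 2.314 and 2.310, and although these groups did not overlap the gap is far smaller than the SD within either.

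Thrsp was the gene with the clearest separation below the rosiglitazone group. Rosiglitazone rats had 6.27, 6.86, 7.25, 7.16 and 5.74, and resveratrol rats 4.09, 4.001, 4.19, 3.63 and 3.54. Obese rats had 3.28, 3.07, 2.74, 3.18 and 3.34, and lean controls 4.16, 3.83, 3.97, 3.98 and 4.32. The obese group was lowest, with no array reaching those of any other group, while resveratrol and lean arrays overlapped. The same rosiglitazone rat, replicate 5, had the lowest value of its group for both Thrsp and Scd.

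Srebf1, whose protein products are the transcription factors SREBP-1a and SREBP-1c, had 5.12, 5.49, 4.66, 4.497 and 5.05 in rosiglitazone rats. It had 3.70, 3.78, 4.16, 3.90 and 3.94 in resveratrol rats, 3.35, 3.89, 4.28, 3.20 and 4.34 in obese rats and 4.23, 3.96, 3.74, 3.70 and 4.40 in lean controls. The rosiglitazone arrays were again the highest, but by a narrow margin, since the lowest stood at 4.497 and the highest lean control at 4.396. The other groups overlapped with each other. A single row measured Srebf1, so its 2 starts could not be told apart.

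Fads1 did not follow the other 4 genes. It had 4.05, 3.92, 3.999, 3.33 and 3.87 in rosiglitazone rats, 3.38, 3.93, 3.71, 4.16 and 3.6004 in resveratrol rats and 3.12, 3.79, 3.83, 3.58 and 4.06 in obese rats. Lean controls had the highest mean, with 4.25, 3.99, 4.04, 4.09 and 4.497. Every neighbouring pair in the order of its group means, lean control, rosiglitazone, resveratrol and obese, overlapped.

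Set against obese muscle, rosiglitazone muscle had Scd 4.32 higher on the log2 scale (SE 0.433, 95% interval 3.42 to 5.22, n = 5 in both groups), which is 20.0-fold. For Thrsp the difference was 3.54 (SE 0.216, interval 3.09 to 3.98), or 11.6-fold, and for Elovl6 it was 2.49 (SE 0.148, interval 2.18 to 2.79), or 5.60-fold. Srebf1 differed by 1.15 (SE 0.211, interval 0.71 to 1.59), or 2.22-fold. Fads1 differed by 0.16 (SE 0.171, interval -0.19 to 0.51), an interval that spans 0. In 4 of the 5 genes no array of one group overlapped the other, in a comparison in which 2.31% of all 14557 genes were higher without overlap and 1.94% passed limma's test with an adjusted p under 0.05. Since the genes were selected on this contrast, nothing is read from that count. The fold of Scd and Elovl6 rests on obese values near the array medians and is less certain than its SE.

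Between resveratrol and obese muscle the differences were smaller. Scd was 1.37 higher in resveratrol muscle (interval 0.47 to 2.27), with arrays that overlapped because of the single high obese rat. Thrsp was 0.77 higher (interval 0.32 to 1.22) and Elovl6 0.48 higher (interval 0.17 to 0.79), while Srebf1 and Fads1 each differed by 0.08 with intervals that span 0. Without overlap, higher values were found for Elovl6 and Thrsp, 2 of 5 genes, against 0.714% of all genes. The genes were selected with this contrast known, so nothing is read from that count. For Elovl6, moreover, 4 of 5 resveratrol and all 5 obese arrays were at or below the median of their array. limma called 0 of 14557 genes in this comparison, or 0%, with 1078 at an unadjusted p under 0.05 and a smallest adjusted p of 0.509. The values for these genes are thus a description of 5 rats in each group and no more.

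Obese muscle against lean control muscle showed lower values for 2 genes. Thrsp differed by -0.93 (interval -1.38 to -0.48) with no overlap, in a comparison in which 1.53% of all genes were lower without overlap. Thrsp was selected with this contrast known, so nothing is read from that share. Fads1 differed by -0.50 (interval -0.85 to -0.15), with overlap by a single obese rat. The intervals of Scd (-0.97 to 0.83), Elovl6 (-0.58 to 0.03) and Srebf1 (-0.63 to 0.25) spanned 0. Of all genes, 0.00687% were called, which is 1 gene, and 1570 had an unadjusted p under 0.05.

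**Figure D2:**
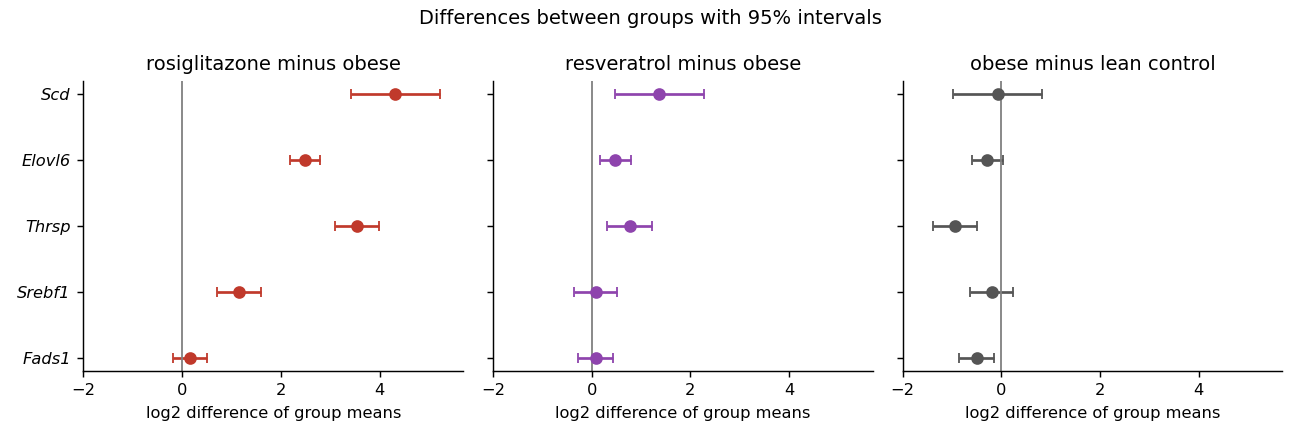
Log2 difference of group means for the 5 genes in 3 comparisons, with 95% intervals from the limma fit over 20 arrays (5 per group). Scd has the highest value in rosiglitazone minus obese, at 4.32, and Fads1 the lowest there, at 0.16, whereas Thrsp has the lowest value in obese minus lean control, at -0.93.

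The remaining comparisons share these arrays and are given for completeness of the levels. Rosiglitazone muscle was above resveratrol muscle by 2.95 for Scd, 2.77 for Thrsp, 2.01 for Elovl6, 1.07 for Srebf1 and 0.08 for Fads1. In that comparison 4 of the 5 genes did not overlap, against 2.02% of all genes, and 2.04% of all genes were called. Rosiglitazone minus lean control came to 4.25 for Scd, 2.61 for Thrsp, 2.21 for Elovl6, 0.96 for Srebf1 and -0.34 for Fads1, again with 4 genes without overlap, against 2.1% of all genes, and with 3.5% of all genes called. The genes were selected with these contrasts known, so nothing is read from either count. Resveratrol minus lean control came to 1.30 for Scd (interval 0.40 to 2.20) and 0.20 for Elovl6 (interval -0.10 to 0.51). It was -0.16 for Thrsp (interval -0.61 to 0.29), -0.11 for Srebf1 (interval -0.54 to 0.33) and -0.42 for Fads1 (interval -0.77 to -0.07), and 0.0137% of all genes were called. The mean of Scd in resveratrol muscle thus lay above both the obese and the lean mean, while that of Thrsp lay between them. The Scd arrays overlapped with both groups, and 4 of 5 obese and 3 of 5 lean arrays were at or below the array median.

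Close relatives of the 5 genes were examined next. Of 13 relatives listed, 10 were measured, and 2 were called higher in rosiglitazone against obese muscle, beside 1.94% of all genes called there. Scd2, the other stearoyl-CoA desaturase measured, had 4.57, 5.64, 4.87, 4.999 and 4.81 in rosiglitazone rats, against 3.52, 3.85, 3.63, 3.70 and 5.01 in obese rats. It differed by 1.04 (SE 0.211, adjusted p = 0.00824 by limma). The obese rat with the highest Scd2, replicate 5, was also the one with the highest Scd. Scd and Scd2 are close paralogs, and how far their probes share signal was not tested. Fads3, which lies in the same gene cluster as Fads1, had 4.31, 4.24, 4.19, 4.37 and 4.32 in rosiglitazone rats, against 2.96, 2.88, 3.71, 3.25 and 3.21 in obese rats. It differed by 1.08 (SE 0.184, adjusted p = 0.00141 by limma), with no overlap between the groups, while Fads1 itself differed by 0.16.

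The other relatives were not called in that comparison. Fads2, the delta-6 desaturase that acts before Fads1, differed by -0.36 and Fads6 by -0.09. Among the elongases, Elovl5 differed by 0.36, Elovl1 by 0.34, Elovl3 by -0.06 and Elovl2 by -0.08, with Elovl2 and Elovl3 at or below the array median on all 20 arrays. Mid1ip1, the relative of Thrsp that activates acetyl-CoA carboxylase, differed by 0.23, and Srebf2, the regulator of sterol synthesis, by -0.33. In resveratrol against obese and in obese against lean control muscle limma called none of the 10 relatives. In resveratrol against obese muscle Srebf2 alone had an unadjusted p under 0.05 (-0.31, adjusted p = 0.648), and in obese against lean control muscle Scd2 (-0.51, adjusted p = 0.389) and Srebf2 (0.28, adjusted p = 0.448) did.

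Genes around the 5 in fatty acid and sterol synthesis were taken from 11 lists, chosen with earlier results of these arrays known, and 59 of 90 genes had a row of their own. Fasn, Acaca, Acacb, Mlxipl and Pparg were among those not analysed here. In rosiglitazone against obese muscle 5 of the 59 were called, all higher, beside the 1.94% called over all genes. The median difference of the list was 0.09, against -0.0048 for all genes, with 38 positive and 21 negative. Besides Scd2 and Fads3 these were Nr1h3, Abcg1 and Mylip, none of which makes fatty acids.

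Nr1h3, which encodes the oxysterol receptor LXRalpha, had 5.58, 5.31, 5.61, 5.44 and 5.77 in rosiglitazone rats, against 5.05, 4.50, 4.72, 4.55 and 4.62 in obese rats, a difference of 0.85 (SE 0.135, adjusted p = 0.000725 by limma). Abcg1, a cholesterol exporter that LXR induces, had 4.28, 4.47, 4.47, 4.37 and 4.05, against 3.18, 3.48, 3.42, 2.90 and 3.49 in obese rats, a difference of 1.03 (SE 0.174, adjusted p = 0.00134). Mylip, an LXR-induced ligase that removes the LDL receptor, had 4.87, 5.20, 4.82, 5.58 and 4.94, against 4.34, 3.93, 3.89, 4.32 and 4.41 in obese rats, a difference of 0.91 (SE 0.163, adjusted p = 0.00245). No array of one group overlapped the other for these 3 genes, and none of the 5 calls was lost when any 1 array was left out. All 5 were lost with the mean of the adipocyte markers, described below, as a covariate, where the differences came to 1.47 for Scd2 (SE 0.447), 1.04 for Fads3 (SE 0.402), 0.92 for Nr1h3 (SE 0.295), 0.57 for Abcg1 (SE 0.363) and 1.42 for Mylip (SE 0.334). Every SE was larger than without the covariate, and only Abcg1 had a clearly smaller difference, since the differences of Scd2 and Mylip were larger. Abca1, a further LXR target, differed by 0.24 and was not called.

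**Figure D3:**
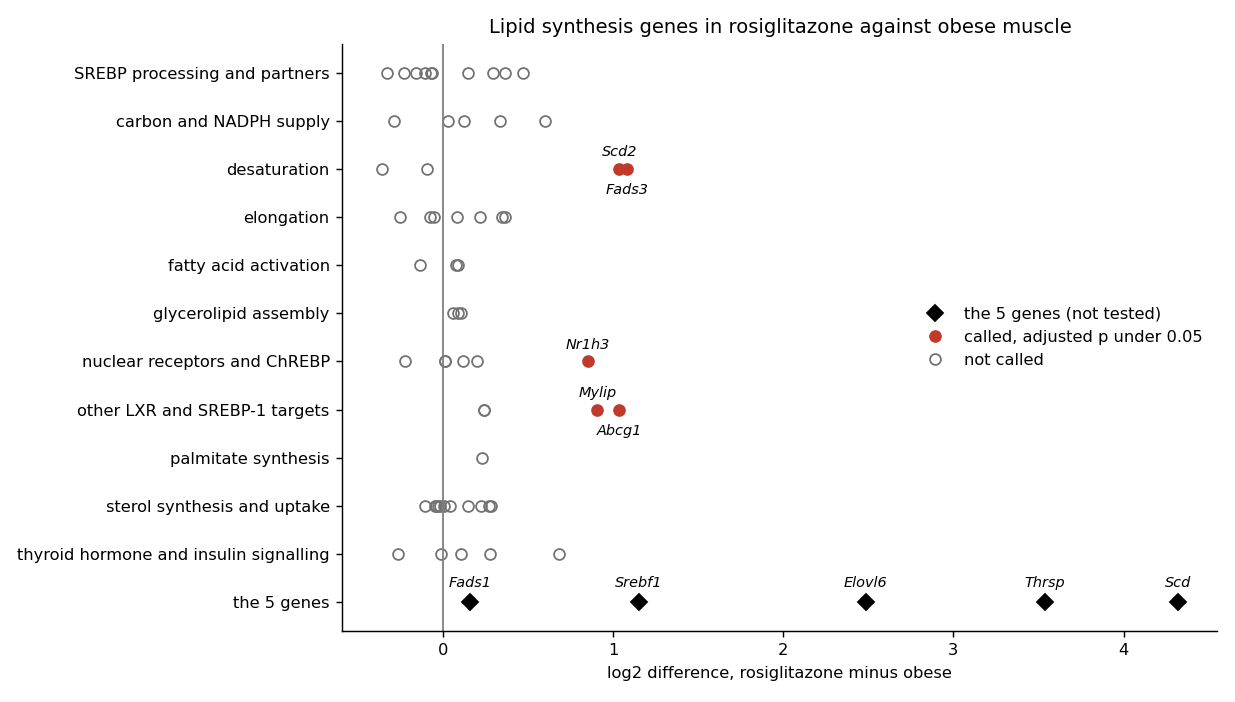
Log2 difference between rosiglitazone and obese muscle for 59 genes in 11 lists (circles) and for the 5 genes (diamonds, not tested). The 5 filled circles, which passed limma's test after adjustment over 14557 genes, lie between 0.85 and 1.08, and the 11 sterol synthesis genes lie close to 0 with none called.

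The steps that feed and use the products of the 5 genes were mostly near 0 in rosiglitazone against obese muscle. Acly, which makes cytosolic acetyl-CoA, had 0.33, the citrate carrier Slc25a1 0.60 and malic enzyme Me1, a source of NADPH, -0.29 (no overlap between groups, adjusted p = 0.129 by limma), and none was called. No gene of elongation (7 measured), fatty acid activation (3) or glycerolipid assembly (3) was called. Of 11 measured genes of sterol synthesis and uptake none was called, and their median was 0.0042. Among the 10 genes of SREBP processing and its partner factors none was called, with Insig1, the sterol-regulated anchor of SREBP, at 0.37 and the NF-Y subunit Nfya at 0.47.

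In rosiglitazone against resveratrol muscle 6 of the 59 genes were called, all higher, beside 2.04% of all genes. Nr1h3 (0.82), Abcg1 (1.14), Mylip (0.85) and Fads3 (0.99) did not lose the call in any leave-one-out fit, whereas Scd2 (0.87) and Insig1 (0.53) each lost it in 7 of the leave-one-out fits. Against lean control muscle, where 3.5% of all genes were called, 5 were higher, namely Fads3 (1.26), Abcg1 (1.28), Mylip (0.73), Nr1h3 (0.62) and Insig1 (0.55), and 1 lower, Hacd1 (-0.57), a dehydratase of the elongation cycle found mainly in muscle. Insig1 lost this call in 6 of those fits and Hacd1 in 7. With the adipocyte covariate none of the calls in either comparison was left, and Hacd1 came to 0.03 (SE 0.350). None of the 59 was called in resveratrol against obese, obese against lean control or resveratrol against lean control muscle.

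Markers of adipocytes moved with the 4 genes, which are all abundant in adipose tissue. In rosiglitazone against obese muscle 7 of 13 measured adipocyte markers were called higher, beside 1.94% of all genes called, with a median of 0.67. The called markers were Adipoq (1.51), Aqp7 (1.59), Fabp4 (1.51), Cidec (1.32), Lep (0.83), Trarg1 (0.67) and Plin1 (0.59). Those not called were Cfd (0.68), Cidea (0.44), Pck1 (0.32), Retn (0.25), Cebpa (0.05) and Gpd1 (-0.07). The mean of the 13 markers lay between 4.52 and 5.12 in rosiglitazone rats, between 4.10 and 4.28 in resveratrol rats, between 3.84 and 4.27 in obese rats and between 3.72 and 4.06 in lean controls. Of the defining markers, Lep was at or below the array median on all arrays outside the rosiglitazone group and on 2 of 5 within it, and Cidec on 3 of 5 in each group other than rosiglitazone. The remaining defining markers were Adipoq, Plin1, Cfd and Retn, of which Cfd and Retn were not called. The mean also takes in markers that stood far above the array medians in lean control muscle, such as Fabp4 at 8.08 and Gpd1 at 8.27. How much of the mean comes from adipocytes rather than other cells was not tested. In bulk tissue more cells of a type and more RNA per cell cannot be told apart, and the part of adipocytes in these results was not tested.

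Other markers moved as well. Of 9 endothelial markers 3 were called higher and of 8 fibroblast markers 1 was called lower in rosiglitazone against obese muscle, with medians of 0.13 and -0.64. None of the 10 skeletal muscle or 8 macrophage markers was called there, beside 1.94% of all genes called. In rosiglitazone against lean control muscle, where 3.5% of all genes were called, 7 of 8 fibroblast markers were called lower (median -0.95). Called higher there were 8 of 13 adipocyte markers, 3 of 9 endothelial markers and the 1 erythroid marker measured, Slc4a1, by 1.06. In resveratrol against obese muscle no marker of any list was called, beside 0% of all genes, and the adipocyte median was 0.12. Their part in the levels of Scd, Elovl6, Thrsp and Srebf1 was not tested.

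**Figure D4:**
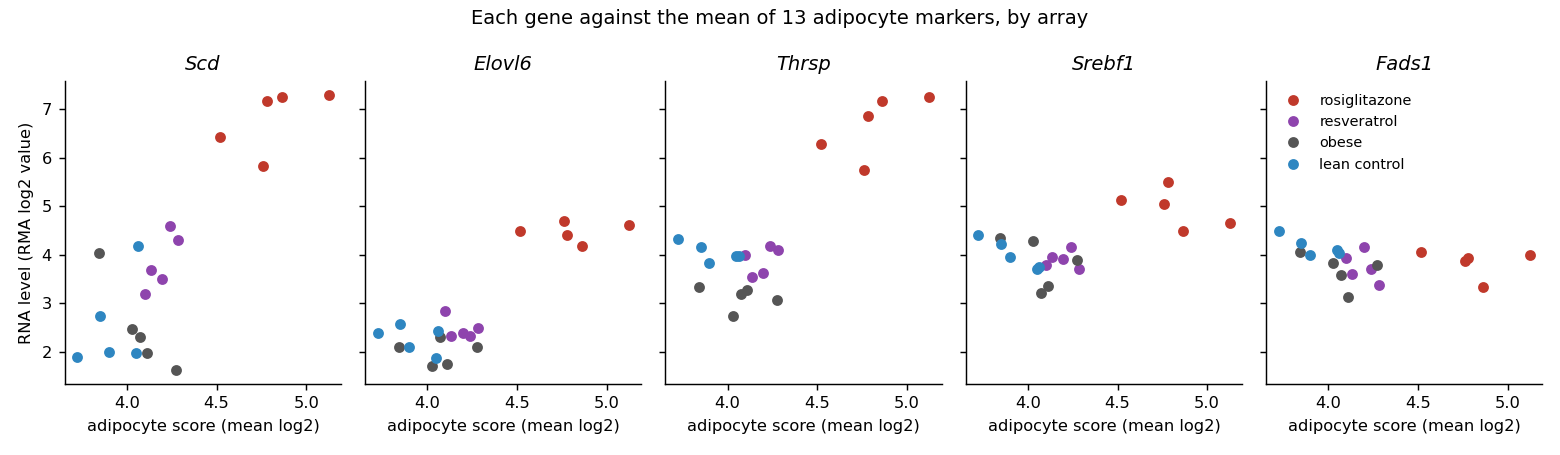
RMA log2 value of each gene against the mean log2 value of 13 adipocyte markers on the same array, for 20 arrays in 4 groups. The rosiglitazone arrays stand apart on the horizontal axis, at 4.52 to 5.12, from all others, at 3.72 to 4.28, and within a group no gene follows the score past the adjusted test.

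Among rats of the same group, the adipocyte mean and the 5 genes were compared as deviations from group means over 20 arrays. Differences between group means do not enter these deviations, but the relations were added once values were known. Scd had r = 0.11 with the adipocyte mean (rho = 0.23, permutation p = 0.688, adjusted p = 0.848), Elovl6 -0.14 (rho = -0.23, permutation p = 0.590, adjusted 0.848) and Thrsp 0.31 (rho = 0.27, permutation p = 0.378, adjusted 0.757). Fads1 had -0.37 (rho = -0.46, permutation p = 0.144, adjusted 0.361). Srebf1 had r = -0.54 (rho = -0.61, permutation p = 0.0435, adjusted p = 0.218 over 10 relations), and r was -0.54 without the 2 arrays farthest from the median of the marker mean. Without those arrays, rosiglitazone replicates 1 and 3, r was -0.04 for Scd, -0.29 for Elovl6, -0.01 for Thrsp and -0.52 for Fads1. None of the 5 relations with the adipocyte mean passed the adjustment. Single markers could differ from the mean. Within groups Adipoq had r = 0.60 with Scd, 0.475 with Thrsp, -0.04 with Elovl6, -0.36 with Srebf1 and -0.345 with Fads1. Fabp4 had -0.11 with Scd and -0.28 with Thrsp. These values of single markers were picked after they were seen and were given no test.

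The same was asked of each pair of the 5 genes. Over all 20 arrays, Elovl6 and Thrsp had r = 0.93, Scd and Thrsp 0.89 and Scd and Elovl6 0.89, but these values repeat the group differences and are given only as a description. Within groups, Srebf1 and Fads1 varied together most, with r = 0.65 (rho = 0.58, permutation p = 0.00585, adjusted p = 0.0585 over 10 pairs), and r was 0.64 without obese replicates 4 and 5. Scd and Thrsp followed, with r = 0.45 (rho = 0.45, permutation p = 0.0315, adjusted p = 0.157), and r was 0.65 without lean control replicate 3 and obese replicate 5, the rats with the highest Scd of their groups. Elovl6 and Fads1 had r = 0.40 (rho = 0.35, permutation p = 0.104, adjusted p = 0.346). The other 7 pairs lay between -0.20 and 0.11, and none of the 10 pairs passed the adjustment.

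**Figure D5:**
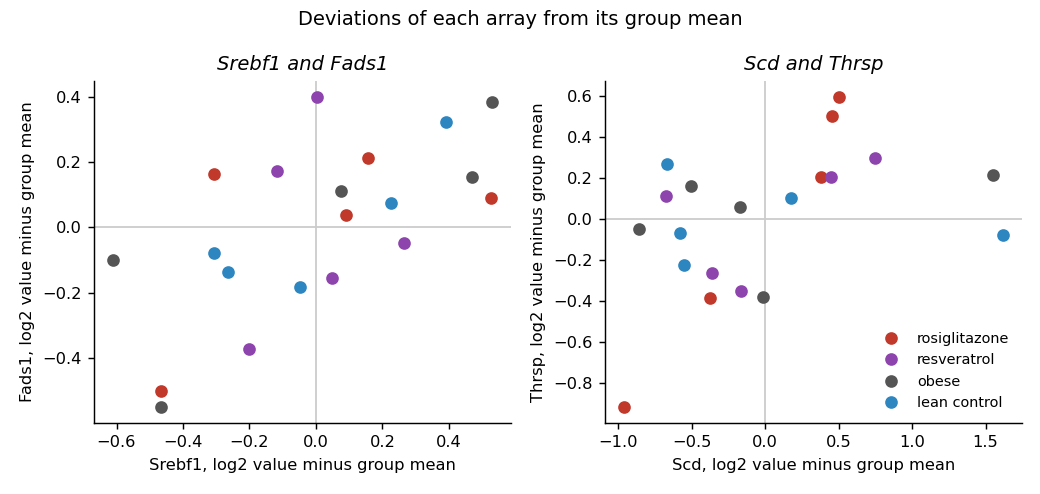
Deviation of each array from its group mean in log2 units, for Srebf1 and Fads1 (left) and for Scd and Thrsp (right), with 20 arrays in 4 groups. Srebf1 and Fads1 gave r = 0.65, and Scd and Thrsp r = 0.45 with 2 arrays, 1 lean control and 1 obese, far to the right.

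The genes whose levels most resembled each of the 5 over the 20 arrays were named by Pearson's r, as a description that the group differences dominate. The 5 genes themselves, genes listed only as cell type markers and symbols beginning with LOC, RGD, Mir, Olr or Vom were left out. Closer genes can thus be missing from these lists, as with Elovl6 and Thrsp, which had r = 0.93 with each other. For Scd these were Vim (0.91), Ceacam1 (0.88), Tril (0.88), Cd151 (0.87) and Rbp7 (0.86). Elovl6 was most like Ceacam1 (0.96), Mgst1 (0.94), Lpar6 (0.92), Ucp2 (0.91) and F2r (0.90). Thrsp was most like Mgst1 (0.94), Ceacam1 (0.93), Vim (0.90), Asah1 (0.89) and Dnaaf9 (0.89). Ceacam1, a cell adhesion protein, was thus among the top 5 of Scd, Elovl6 and Thrsp. Its mean was 5.58 in rosiglitazone, 3.01 in resveratrol, 2.96 in obese and 2.80 in lean control muscle.

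Srebf1 and Fads1 had other neighbours. Srebf1 was most like Cd48 (0.89), Actg1 (0.88), Selenom (0.87), Ly6e (0.85) and Pdgfb (0.85). Fads1 was most like Slc39a1 (0.82), Pcolce (0.76), Anpep (0.76), Txndc5 (0.75) and Mtrr (0.75). Within groups Fads1 and Slc39a1, a zinc importer, still had r = 0.77 and Srebf1 and Cd48 r = 0.76, whereas Ceacam1 had -0.04 with Scd, 0.19 with Elovl6 and 0.28 with Thrsp. These pairs were picked as the highest among the genes left of 14557 after the exclusions, so their values are a description and were given no test.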

How the data were processed

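Total RNA from red tibialis anterior was hybridised to Affymetrix Rat Gene 2.1 ST strips, 1 array for each of 20 rats. The deposited table holds log2 values that come from RMA as run by the authors, with background correction, normalisation to a shared distribution and a summary over probes. RMA evens out the arrays, so a shift shared by all genes would not be seen. Background signal is not given separately, and the number of arrays limits the precision.

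Of 36685 rows, 14824 had exactly 1 gene symbol, 829 several and 21032 none. For 234 genes with several rows the row with the highest mean was used, which left 14557 genes. Symbols came from the platform annotation, of which 14670 rows matched RefSeq (GRCr8) by gene identifier. Group means were fitted with limma (version 3.58.1, R 4.3.3) over all 20 arrays with 16 residual and 6.35 prior degrees of freedom, and 2-sided p values were adjusted by Benjamini-Hochberg over all 14557 genes within a comparison. Called genes are those whose adjusted p was under 0.05. The replicates are labelled as biological, and no batch is named in the labels.

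The 5 genes, the lists of other genes and the tests were chosen with earlier results of these data known. The rule named the 5 genes, their relatives, called pathway genes and a fixed set of regulators and enzymes. It also named, for each of the 5, the 5 genes most like it after the exclusions given above. Genes of a list named without a call were picked after their values were seen. Within-group correlations used deviations from group means and 100000 permutations of arrays within groups, 2-sided, adjusted over 10 pairs of genes or over 10 relations with the adipocyte and clock scores. The relations with scores were an addition made once values were known. The adipocyte score is the mean of 13 markers. The clock score is the average of Npas2, Clock and Bmal1 less that of Per1, Per2, Per3 and Dbp. Promoter motifs were counted in Python 3.11.15 with pandas 2.3.3, and plots were drawn with matplotlib 3.10.9. The fitting and correlation code was tested on simulated data. Alternatives were a replicate block, trend and robust moderation, brighter genes alone, quantile normalisation, median centring, weights for arrays, a fit of the 2 groups concerned, all rows or averaged rows, both scores as covariates and each array left out.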

Additional observations from a re-analysis of the deposited data

Results flagged for a closer look

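A sample far from the rest of its group was looked for in 88 combinations of a gene and a group of 5 arrays, and 4 were found, where chance alone finds about 1 in 20. Fads1 was lowest in rosiglitazone replicate 4, at 3.332, with the next rat at 3.871. Scd2 was highest in obese replicate 5, at 5.01, with the next at 3.85. Elovl5 was highest in the same obese rat, at 5.838, with the next at 5.348. Mylip was highest in resveratrol replicate 5, at 4.473, with the next at 4.205. Scd was also highest in obese replicate 5, at 4.03, but did not pass this limit.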

How the results depend on the processing

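Leaving out any 1 array kept the rosiglitazone minus obese difference between 4.10 and 4.71 for Scd, 2.42 and 2.57 for Elovl6, 3.39 and 3.77 for Thrsp, 0.997 and 1.28 for Srebf1 and 0.02 and 0.28 for Fads1. The resveratrol minus obese range was 1.16 to 1.76 for Scd, 0.39 to 0.56 for Elovl6 and 0.67 to 0.86 for Thrsp. Scd in obese minus lean control ran from -0.46 without obese replicate 5 to 0.34 without lean control replicate 3 and so had no settled sign, as was so in resveratrol minus obese for Srebf1 (-0.07 to 0.22) and Fads1 (-0.06 to 0.18) and in rosiglitazone minus resveratrol for Fads1 (-0.01 to 0.20). The count of pathway genes called ran from 5 to 9 in rosiglitazone against obese, with 9 without rosiglitazone replicate 2, from 4 to 6 against resveratrol, from 4 to 7 against lean control and from 0 to 1 in obese against lean control, with 1 without obese replicate 5.

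With the adipocyte score as a covariate, pathway calls fell to 0 in rosiglitazone against obese, resveratrol and lean control, beside 11, 20 and 4 calls over all genes. In these 3 comparisons the difference came to 3.92, 2.62 and 3.77 for Scd, 2.64, 2.14 and 2.40 for Elovl6, 2.97, 2.30 and 1.93 for Thrsp, 2.10, 1.86 and 2.10 for Srebf1 and 0.67, 0.51 and 0.28 for Fads1. Fads1 in rosiglitazone minus lean control thus changed sign, from -0.34 without the covariate. Srebf1 in resveratrol minus lean control, at -0.11 without a covariate, turned to 0.24 with this covariate and 0.06 with the clock score. The score itself did not overlap between rosiglitazone and the other groups, and the cause was not tested. Over all alternatives, 802 values stayed within the limits set for them and 14 moved. A difference of the 5 genes counted as moved only if it shifted by at least the residual SD of the gene, 0.80 for Scd. A change of sign could therefore stay within the limits. Leave-one-out correlations could not leave their limit, since no pair had passed the adjustment, so these counts are no measure of stability. Over all genes, obese against lean control gave 24 calls with trend and robust moderation or without obese replicate 5, 8 with array weights, 7 among brighter genes and 6 with the clock score, resveratrol against lean control 0 to 5, rosiglitazone against resveratrol 177 with only these groups or without resveratrol replicate 2, and rosiglitazone against lean control 308 with the clock score and 325 without lean control replicate 1.

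The replicate block gave 5 pathway calls in rosiglitazone against obese, 6 against resveratrol, 5 against lean control and 0 elsewhere, with 218, 225 and 385 calls over all genes in the first 3. Same-numbered arrays had correlations of deviations between -0.17 and 0.07 in 30 pairs, none over 0.1. No pairing by number was thus seen over all genes, but a weak one would not show in this check. The labels do not say whether the numbers pair animals. Values near the array medians, as for Scd and Elovl6 outside the rosiglitazone group, limit how far a low level can be told from background.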

Other observations

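Clock genes were set beside the 5 genes within groups, since the lipogenic regulators follow feeding and time of day. These relations, too, were added once values were known. Over 20 arrays Srebf1 had r = -0.69 with the clock score (rho = -0.65, permutation p = 0.00471, adjusted p = 0.0471 over 10 relations by r and 0.0669 by rho), and r was -0.68 without lean control replicate 2 and obese replicate 1, the 2 arrays farthest from the median score. Fads1 had r = -0.45 (rho = -0.45, permutation p = 0.0698, adjusted p = 0.233), and r was -0.27 without those arrays. Scd (-0.05), Elovl6 (-0.12) and Thrsp (-0.06) had permutation p values of 0.848, 0.629 and 0.847. The mean clock score was -0.29 in rosiglitazone, -0.65 in resveratrol, -0.92 in obese and -1.33 in lean control muscle, with ranges that overlapped between all groups.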
